A study of Homo sapiens with 18 samples.

Results

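The expression of 50 mitosis genes was followed across the 18 RNA-seq libraries of a study on radiation in lung cell lines. The 50 genes encode parts of the kinetochore, the mitotic spindle and the machinery that takes a cell from G2 through mitosis, and they are 50 of the 18475 genes in the deposited table. They were listed by symbol and found by the Entrez number of each symbol, and all 50 were present. The list was drawn up after mitosis genes had been seen to be higher in irradiated H446 cells of these same libraries. The radiation contrasts below are therefore a description of the members with no test, and levels between unirradiated lines are the comparisons that the choice of members did not use.

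The study compared 3 wild-type lines, each with 3 control and 3 irradiated libraries. BEAS-2B is an immortalised line of bronchial epithelium, A549 a lung adenocarcinoma line and H446 a line of small cell lung cancer. Irradiated cells received 10 Gy of X-rays and were taken for RNA-seq 24 h later. The other cells are given as control with no time, and the titles call their libraries before and the irradiated ones after. Whether the controls were grown for the same 24 h is not stated, so time in culture cannot be told apart from radiation. The study asked whether radiation acts differently on epithelial and cancer cells. Each group is 1 line in culture, and the labels do not say that its 3 libraries came from separate cultures, so that p-values below measure the spread between libraries, which may be technical. The keratin genes KRT8 and KRT18, which mark epithelial cells, were abundant in all 3 lines, with control means of 522, 533 and 1368 FPKM for KRT8 in BEAS-2B, A549 and H446. Of the same list, EPCAM and the cadherin gene CDH1 were low, with control means of 2.37, 0.49 and 1.11 FPKM for EPCAM and of 0.46, 7.05 and 0.59 FPKM for CDH1. Markers of the labelled cell types were present in part. The neuroendocrine genes CHGA, SYP and NCAM1, which mark small cell lung cancer, had means of 0 to 0.19 FPKM in H446 controls and of up to 4.66 FPKM in the other lines. The lung lineage genes NKX2-1, SFTPB and NAPSA had means of 0.07, 0.02 and 0.69 FPKM in A549 controls. The keratin KRT7, often present in lung adenocarcinoma, was at 315, 834 and 1337 FPKM in BEAS-2B, A549 and H446. BEAS-2B controls had 0.01 FPKM of the basal keratin KRT5 and 0.16 FPKM of TP63, while the keratin KRT17 was at 165, 0.14 and 759 FPKM in the 3 lines. Of the fibroblast markers, BEAS-2B controls had 112 FPKM of THY1, 11.7 of PDGFRB, 8.4 of COL1A1 and 0.4 of COL1A2. The leukocyte genes PTPRC and LYZ had control means of 0 to 0.28 FPKM in the 3 lines, while CD68 was at 9.74, 27.6 and 8.56 FPKM in BEAS-2B, A549 and H446. The endothelial genes VWF and CDH5 were at 0 to 0.01 FPKM in the 3 lines, and PECAM1 was at 3.81 FPKM in H446 and 0.01 FPKM in the others.

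Before a cell divides, the kinase CDK1 joins cyclins A and B and drives it from G2 into mitosis. Microtubules of the spindle then attach to kinetochores, the protein plates on each centromere, and a checkpoint holds the cell until every chromosome is attached. Separase then cuts the ties between sister chromatids, and a contractile ring parts the daughter cells. Most genes of this machinery are transcribed late in the cell cycle, from promoters that carry a short element called the cell cycle genes homology region (CHR) and CCAAT boxes, which bind NF-Y. The CHR is bound by the MuvB proteins, with B-MYB and FOXM1 in dividing cells and with p130 in the repressive DREAM complex, through which p53 lowers these genes in many cells after DNA damage.

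The promoter sequences of 5 members are shown because this element was in most members with a promoter entry, a feature the choice did not use. They belong to the members with the 3 largest (NUF2, NEK2 and HMMR) and the 2 smallest (ESPL1 and ZWINT) log2 fold changes in irradiated H446 cells among those with a RefSeq promoter entry (GRCh38.p14). Each is the 250 bases upstream of a transcription start, 5′ to 3′ on the strand of the gene, and capitals mark the CHR letters TTTGAA or TTCGAA and the CCAAT letters, found on either strand.
NUF2, chr1:163321704-163321953, plus strand: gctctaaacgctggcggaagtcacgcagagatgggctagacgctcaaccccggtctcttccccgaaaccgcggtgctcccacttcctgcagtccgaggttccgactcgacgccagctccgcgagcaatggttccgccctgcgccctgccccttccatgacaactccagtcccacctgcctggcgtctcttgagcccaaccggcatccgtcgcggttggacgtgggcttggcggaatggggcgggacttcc
NEK2, chr1:211675622-211675871, minus strand: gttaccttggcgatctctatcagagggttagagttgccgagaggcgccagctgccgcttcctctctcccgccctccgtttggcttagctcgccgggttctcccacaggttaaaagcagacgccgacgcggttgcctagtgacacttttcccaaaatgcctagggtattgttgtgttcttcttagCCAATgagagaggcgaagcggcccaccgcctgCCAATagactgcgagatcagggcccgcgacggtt
HMMR, chr5:163460382-163460631, plus strand: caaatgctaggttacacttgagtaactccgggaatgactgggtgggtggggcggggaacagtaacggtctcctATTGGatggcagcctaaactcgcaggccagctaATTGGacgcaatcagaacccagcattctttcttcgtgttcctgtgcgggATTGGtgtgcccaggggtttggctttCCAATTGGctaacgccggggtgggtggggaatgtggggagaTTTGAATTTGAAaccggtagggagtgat
ESPL1, chr12:53268049-53268298, plus strand: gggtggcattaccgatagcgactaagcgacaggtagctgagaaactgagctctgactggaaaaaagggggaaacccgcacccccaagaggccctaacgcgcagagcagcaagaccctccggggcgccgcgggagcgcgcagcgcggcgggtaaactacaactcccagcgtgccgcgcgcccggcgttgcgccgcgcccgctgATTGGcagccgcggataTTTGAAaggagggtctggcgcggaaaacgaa
ZWINT, chr10:56361260-56361509, minus strand: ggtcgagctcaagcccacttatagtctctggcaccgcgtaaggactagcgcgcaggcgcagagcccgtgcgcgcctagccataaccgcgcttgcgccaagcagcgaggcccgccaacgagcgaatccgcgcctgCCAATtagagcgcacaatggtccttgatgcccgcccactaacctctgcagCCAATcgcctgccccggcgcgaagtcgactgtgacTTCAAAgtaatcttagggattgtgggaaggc

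HMMR held the CHR letters in tandem, starting 28 and 22 bases before the start, and CCAAT letters that begin 177, 144, 95, 69 and 66 bases before it, the last pair overlapping as CCAATTGG. ESPL1 and ZWINT each had a CHR 31 bases before the start, with CCAAT letters at 48 bases in ESPL1 and at 116 and 66 bases in ZWINT. NEK2 had CCAAT letters at 66 and 34 bases and no CHR letters in its window. NUF2 had neither in the bases shown, and its CHR letters began at base 17 of the transcript. Of the 5 shown, the members least changed in H446 thus held the same kinds of letters as HMMR.

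Both strands of the RefSeq windows, which run from 250 bases before to 50 bases after each start, were searched for all members and for all genes of the RefSeq promoter table. A window was given for 41 members and none for KNL1, AURKA, BIRC5, BUB3, TTK, UBE2C, FOXM1, RACGAP1 and TPX2. CHR letters were in 32 of the 41 members (78.0%), in 15.2% of the 9404 other genes tested in H446 and in 19.5% of all 27305 genes with a window. CCAAT was in 35 members (85.4%), in 43.6% of the other tested genes and in 39.7% of all genes. At least 2 CCAAT were in 23 members (56.1%) and in 16.4% of the other tested genes. CHR and CCAAT letters occurred together in 28 members (68.3%) and in 6.37% of the other tested genes. The E2F letters TTTCCCGC or TTTGGCGC, typical of genes transcribed before and during DNA replication, were in 2 members (4.88%) and in 4.83% of the other tested genes. Some genes had more than 1 window. Counted by window, CHR letters were in 36 of 52 windows of members (69.2%) and in 11.6% of the 13804 windows of the other tested genes. Of the 52 windows, 40 had their bases after the start in a GENCODE transcript of the same gene and strand. Within the list, the median log2 fold change in H446 was 0.70 for the 32 members with CHR letters and 0.88 for the 9 without, while the 23 members with at least 2 CCAAT had 0.79 and the other 18 had 0.60. These are counts of letters, and they show neither binding nor the site that is used.

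The deposited values were taken as FPKM, fragments per length of transcript and per mapped reads of the library, so that levels can be compared between genes per length. The total per library was between 461255 and 529936 FPKM, and how many reads stand behind it is unknown. A log2 fold change below is the difference of group means of log2(FPKM + 1), given ± its standard error, and it understates the change of genes with low values. A gene is called when its Benjamini-Hochberg adjusted p in limma is under 0.05 over all genes tested. Of the BEAS-2B libraries, 10 Gy replicate 2 stood apart. The p53 target CDKN1A, which encodes the CDK inhibitor p21, was at 102 FPKM in it, against 309.7 and 488 FPKM in the other irradiated BEAS-2B libraries and 79.9 to 86.4 FPKM in the controls. Where a sentence gives the BEAS-2B log2 fold change of 1 gene, the value without this library follows in brackets. In bulk RNA, a larger share of cells in G2 or mitosis and more RNA per cell of that kind cannot be told apart.

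In H446 cells, 47 of the 50 members were called higher after 10 Gy, 0 were called lower and 3 were not called. Over all 11479 genes tested in H446, 38.4% were called, 14.8% higher and 23.6% lower, and since the members were chosen on this contrast nothing is read from the difference. In A549, 25.3% of all genes tested were called higher and 26.4% lower, and the counts of each group of members below stand beside these shares of their line. The members' log2 fold changes ran from -0.018 for ZWINT to 1.17 for NUF2, with a median of 0.71, against -0.033 over all genes tested. All 3 irradiated libraries lay above all 3 controls for 49 members, with ZWINT as the exception, a pattern held by 20.4% of all genes tested. The 3 irradiated H446 libraries were alike, with a median member 0.66, 0.71 and 0.75 log2 units above the control mean, and the 3 controls lay between -0.010 and 0.017. In the plot of members by library, the 3 columns of irradiated H446 cells are higher in nearly every row.

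**Figure D1:**
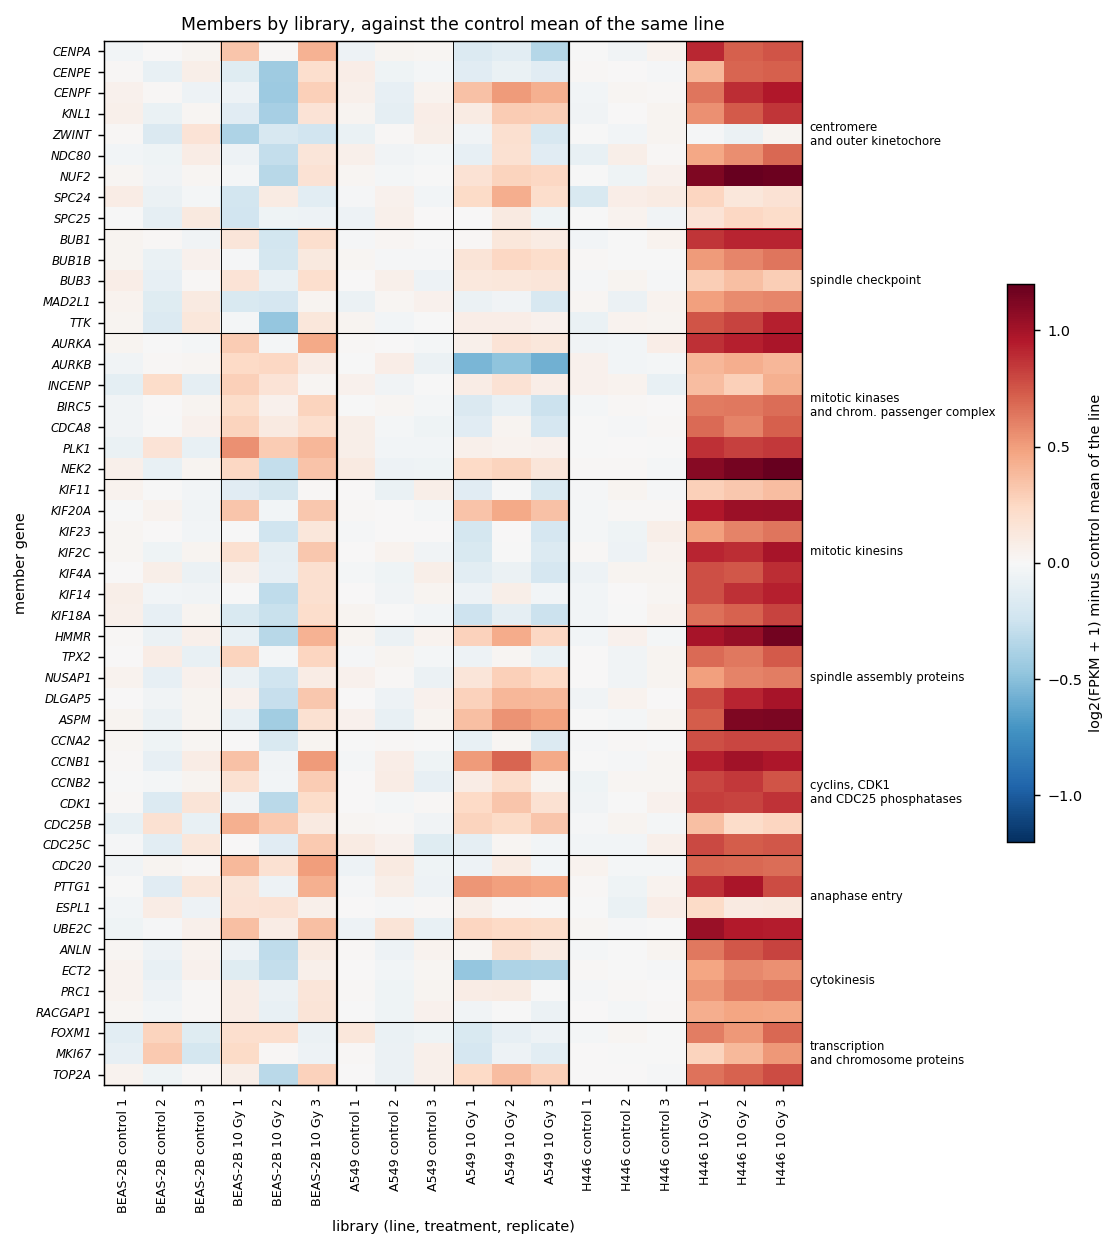
Each row is 1 of the 50 members, grouped by role, and each column 1 library. Colour gives log2(FPKM + 1) minus the control mean of the same line. Irradiated H446 libraries are higher throughout except for ZWINT, irradiated A549 libraries hold rows of both signs with AURKB and ECT2 lowest, and BEAS-2B 10 Gy replicate 2 is the lowest of the 3 irradiated BEAS-2B libraries in 41 rows and the highest in 6.

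In H446, the log2 fold changes of the 9 centromere and outer kinetochore genes had a median of 0.60, with 7 called higher and 2 not called. NUF2, a subunit of the NDC80 complex that grips the microtubule (chromosome 1, 163321954-163355759 on GRCh38), stood in H446 at 29.6, 28.6 and 30.6 (controls) and 65.3, 69.4 and 68.3 (10 Gy) FPKM, a log2 fold change of 1.17 ± 0.040. Its A549 values were 22.7, 21.9 and 22.3 (controls) and 25.2, 27.1 and 26.6 (10 Gy) FPKM, a log2 fold change of 0.23 ± 0.044. BEAS-2B cells had 81.4, 77.7 and 81.8 (controls) and 79.1, 63.7 and 90.4 (10 Gy) FPKM, a log2 fold change of -0.060 ± 0.11 [0.075]. The groups did not overlap in H446 or in A549, and in BEAS-2B the irradiated libraries lay on both sides of the controls. ZWINT, which helps to hold the checkpoint and dynein proteins on the kinetochore (chromosome 10, 56357227-56361273), stood in H446 at 61.3, 60.5 and 63.3 (controls) and 61.2, 58.7 and 62.97 (10 Gy) FPKM, a log2 fold change of -0.018 ± 0.038. Its A549 values, 32.3, 34.5 and 36.1 (controls) and 33.3, 39.3 and 29.9 (10 Gy) FPKM, overlapped as well, with a log2 fold change of -0.013 ± 0.079. In BEAS-2B it was the member with the lowest log2 fold change, -0.26 ± 0.094 [-0.30], from 94.95, 83.3 and 105 (controls) and 72.7, 82.4 and 80.3 (10 Gy) FPKM, and it was not called there. The groups of ZWINT overlapped in both cancer lines and not in BEAS-2B.

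The 4 subunits of the NDC80 complex were thus unequal in H446. NUF2 was 1.17 and NDC80 0.57 ± 0.061 log2 units higher, while SPC25 was 0.21 ± 0.047 higher and SPC24 0.19 ± 0.074, the last not called. In A549, NUF2 and SPC24 (0.29 ± 0.069) were called higher, and the log2 fold changes of NDC80 and SPC25 were -0.014 ± 0.078 and 0.019 ± 0.056. SPC24 was the single member called higher in A549 and not in H446, and with the GC trend of each library removed it was called in H446 too (0.27 ± 0.072). The large kinetochore protein CENPF had log2 fold changes of 0.83 ± 0.067 in H446 and 0.43 ± 0.054 in A549, and both were called. CENPA, the histone that marks the centromere, went both ways, with 0.79 ± 0.054 in H446 and -0.21 ± 0.060 in A549, also both called. The kinesin CENPE was called in H446 (0.60 ± 0.076) and not in A549 (-0.12 ± 0.053). KNL1, the platform for checkpoint proteins, was called higher in both, by 0.71 ± 0.072 and 0.23 ± 0.070 log2 units.

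All 5 spindle checkpoint genes were called higher in H446, with a median log2 fold change of 0.58. BUB1, the kinase that recruits the checkpoint to the kinetochore (chromosome 2, 110637528-110678063), had the highest log2 fold change of the group in H446. Its H446 levels were 35.3, 35.96 and 37.4 (controls) and 66.2, 68.9 and 69.2 (10 Gy) FPKM, a log2 fold change of 0.89 ± 0.038. Its A549 levels were 37.3, 38.5 and 37.5 (controls) and 38.2, 41.6 and 40.4 (10 Gy) FPKM, a log2 fold change of 0.083 ± 0.042, and its BEAS-2B levels were 70.6, 69.6 and 66.9 (controls) and 76.5, 59.05 and 79.7 (10 Gy) FPKM, a log2 fold change of 0.043 ± 0.11 [0.18]. Neither of these was called, and 1 irradiated BEAS-2B library lay below all controls. BUB3, the WD-repeat partner of BUB1, changed least of the 5. It stood in H446 at 103, 106 and 103 (controls) and 128, 134 and 128 (10 Gy) FPKM, a log2 fold change of 0.31 ± 0.035, and in A549 at 87.9, 91.4 and 83.9 (controls) and 96.1, 96.4 and 97.4 (10 Gy) FPKM, a log2 fold change of 0.14 ± 0.039. The groups did not overlap in either line, and both were called. BEAS-2B cells had 109, 96.2 and 104 (controls) and 116, 96.7 and 119 (10 Gy) FPKM of BUB3, a log2 fold change of 0.093 ± 0.093 [0.19] with overlapping groups. MAD2L1, the subunit that blocks CDC20, stood in H446 at 51.5, 48.3 and 52.2 (controls) and 71.8, 75.3 and 76.6 (10 Gy) FPKM, a log2 fold change of 0.55 ± 0.042. It was at 32.96, 35.4 and 36.01 (controls) and 33.1, 33.7 and 30.2 (10 Gy) FPKM in A549, a log2 fold change of -0.10 ± 0.051, and at 78.5, 69.03 and 82.3 (controls) and 67.1, 66.3 and 78.3 (10 Gy) FPKM in BEAS-2B, a log2 fold change of -0.12 ± 0.093 [-0.074]. Both of these groups of libraries overlapped. The kinases BUB1B and TTK had log2 fold changes of 0.58 ± 0.039 and 0.83 ± 0.053 in H446, and of the pair only BUB1B was called in A549 (0.20 ± 0.041, against 0.070 ± 0.045 for TTK).

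All 7 mitotic kinases and chromosomal passenger genes were called higher in H446, with a median log2 fold change of 0.66, and in A549 2 were called higher and 2 lower. PLK1, the kinase of spindle pole maturation and mitotic entry (chromosome 16, 23678889-23690367), stood in H446 at 62.2, 62.4 and 62.2 (controls) and 115, 111 and 113 (10 Gy) FPKM, a log2 fold change of 0.85 ± 0.033. It was at 28.5, 26.5 and 26.5 (controls) and 28.4, 27.99 and 28.2 (10 Gy) FPKM in A549, a log2 fold change of 0.054 ± 0.043 that was not called. PLK1 also had the highest log2 fold change of any member in BEAS-2B, 0.42 ± 0.094 [0.47], from 56.2, 66.7 and 55.7 (controls) and 87.4, 73.3 and 78.4 (10 Gy) FPKM. Its groups did not overlap in BEAS-2B, although it was not called there. AURKA, the spindle pole kinase that activates PLK1, stood in H446 at 56.2, 56.6 and 61.2 (controls) and 107, 112 and 116 (10 Gy) FPKM, a log2 fold change of 0.93 ± 0.044. It was at 56.2, 55.8 and 54.5 (controls) and 58, 62.1 and 60.99 (10 Gy) FPKM in A549, a log2 fold change of 0.12 ± 0.039 that was called, and at 85.02, 83.1 and 81.9 (controls) and 103, 82 and 115 (10 Gy) FPKM in BEAS-2B, a log2 fold change of 0.25 ± 0.11 [0.38]. In BEAS-2B, irradiated replicates 1 and 3 lay above the controls and replicate 2 at their lower edge. NEK2, a centrosome-splitting kinase, had the second highest log2 fold change of all members in H446, 1.14 ± 0.037. It stood there at 41.4, 41.4 and 40.3 (controls) and 88.7, 92 and 94.9 (10 Gy) FPKM. It was at 29.3, 25.9 and 26.1 (controls) and 32.1, 32.8 and 30.1 (10 Gy) FPKM in A549, a log2 fold change of 0.22 ± 0.054, and at 57.2, 51.4 and 56.3 (controls) and 65.3, 44.9 and 69.9 (10 Gy) FPKM in BEAS-2B, a log2 fold change of 0.10 ± 0.14 [0.29]. It was called in A549, and its BEAS-2B groups overlapped.

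The 4 proteins of the chromosomal passenger complex, which corrects faulty attachments and later steers cytokinesis, are the kinase AURKB, its scaffold INCENP and the targeting subunits BIRC5 and CDCA8. Their log2 fold changes in H446 were 0.41 ± 0.039, 0.36 ± 0.051, 0.64 ± 0.035 and 0.66 ± 0.043. INCENP, the lowest of the group, stood in H446 at 23.4, 23.3 and 21.2 (controls) and 29.4, 27.9 and 30.7 (10 Gy) FPKM. It was at 10.9, 10.2 and 10.4 (controls) and 11.2, 11.9 and 11.2 (10 Gy) FPKM in A549, a log2 fold change of 0.11 ± 0.053, and at 21.1, 27 and 21.3 (controls) and 28.4, 25.9 and 23.3 (10 Gy) FPKM in BEAS-2B, a log2 fold change of 0.16 ± 0.11 [0.15]. The A549 groups of INCENP did not overlap, and it was not called in either line. AURKB is given in full because it had the lowest log2 fold change in A549, a choice made after its values were seen. In A549 it was at 46.2, 48.9 and 44.1 (controls) and 31.5, 32.98 and 30.8 (10 Gy) FPKM, a log2 fold change of -0.53 ± 0.047. It was at 31.7, 29.8 and 29.98 (controls) and 40.5, 41.6 and 40.6 (10 Gy) FPKM in H446, and at 91.2, 95.2 and 95.9 (controls) and 111, 112 and 99.97 (10 Gy) FPKM in BEAS-2B, a log2 fold change of 0.19 ± 0.074 [0.16]. AURKB libraries thus did not overlap in any line, lower after 10 Gy in A549 and higher in the others, although it was not called in BEAS-2B. BIRC5 shared this pattern, with -0.17 ± 0.046 in A549 (called) and 0.18 ± 0.078 [0.24] in BEAS-2B (not called).

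The 7 mitotic kinesins, motors that move along or cut microtubules, were all called higher in H446, with a median log2 fold change of 0.80. KIF20A, which carries the passenger complex to the midzone (chromosome 5, 138179112-138187723), stood in H446 at 46.2, 47.3 and 47.4 (controls) and 92.6, 96.9 and 97.4 (10 Gy) FPKM, a log2 fold change of 1.01 ± 0.035. It was at 18.4, 18.4 and 17.9 (controls) and 23.4, 25.3 and 23.6 (10 Gy) FPKM in A549, a log2 fold change of 0.38 ± 0.046, the single kinesin called higher there. BEAS-2B cells had 95.03, 98.5 and 92.7 (controls) and 121, 93.5 and 119.6 (10 Gy) FPKM, a log2 fold change of 0.21 ± 0.10 [0.33], with replicate 2 of the irradiated cells among the controls. KIF23, the motor of the centralspindlin complex that builds the midzone, stood in H446 at 54.3, 53.3 and 57.9 (controls) and 78.1, 83.7 and 86.5 (10 Gy) FPKM, a log2 fold change of 0.58 ± 0.047. It was at 44.9, 45.4 and 45.5 (controls) and 38.97, 45.5 and 39.2 (10 Gy) FPKM in A549, a log2 fold change of -0.13 ± 0.055, and at 81.7, 80.6 and 78.5 (controls) and 79.8, 68.02 and 88.04 (10 Gy) FPKM in BEAS-2B, a log2 fold change of -0.038 ± 0.093 [0.061]. Neither was called. KIF11, the motor that pushes spindle poles apart, changed least among the kinesins in H446, from 30.2, 31.2 and 30.1 (controls) and 37.4, 38.5 and 39.8 (10 Gy) FPKM, a log2 fold change of 0.33 ± 0.039. It was at 31.1, 29.2 and 32.5 (controls) and 28.1, 30.9 and 27.1 (10 Gy) FPKM in A549, a log2 fold change of -0.11 ± 0.055, and at 78.8, 76.2 and 74.8 (controls) and 69.6, 66.2 and 77.4 (10 Gy) FPKM in BEAS-2B, a log2 fold change of -0.11 ± 0.078 [-0.061]. KIF11 groups overlapped in both of those lines. The depolymerase KIF2C, the chromokinesin KIF4A, KIF14 and KIF18A had log2 fold changes of 0.73 to 0.93 in H446, and in A549 KIF18A was called lower (-0.20 ± 0.050).

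All 5 spindle assembly genes were called higher in H446, with the highest median of the 9 groups, 0.90 log2 units, and 4 of the 5 were called higher in A549, where their median was 0.33. HMMR, a spindle pole protein and hyaluronan receptor (chromosome 5, 163460632-163491941), stood in H446 at 17.3, 18.5 and 17.4 (controls) and 36.1, 37.6 and 40.8 (10 Gy) FPKM, a log2 fold change of 1.06 ± 0.051. It was at 30.9, 28.6 and 31.1 (controls) and 36.8, 41.5 and 36.1 (10 Gy) FPKM in A549, a log2 fold change of 0.33 ± 0.056, and at 56.9, 53.7 and 58.8 (controls) and 53.1, 44.5 and 75.7 (10 Gy) FPKM in BEAS-2B, a log2 fold change of -0.002 ± 0.15 [0.17]. The cancer lines did not overlap, while irradiated BEAS-2B libraries lay on both sides of the controls. NUSAP1, which bundles microtubules near chromosomes, stood in H446 at 165, 160.3 and 169 (controls) and 232, 249.05 and 252 (10 Gy) FPKM, a log2 fold change of 0.57 ± 0.041. It was at 86.2, 83.8 and 79.03 (controls) and 91.7, 101 and 97.9 (10 Gy) FPKM in A549, a log2 fold change of 0.22 ± 0.046, and at 263, 238 and 265 (controls) and 244, 216 and 272 (10 Gy) FPKM in BEAS-2B, a log2 fold change of -0.071 ± 0.095 [0.013]. The gene was called in both cancer lines. TPX2, the activator of AURKA on spindle microtubules, stood in H446 at 118, 114 and 120.2 (controls) and 188, 182 and 196 (10 Gy) FPKM, a log2 fold change of 0.68 ± 0.039. It was the member of the group not called in A549, at 93.8, 96.6 and 93.3 (controls) and 90.8, 96.3 and 89.4 (10 Gy) FPKM and a log2 fold change of -0.037 ± 0.039. In BEAS-2B it was at 173, 183 and 162 (controls) and 208, 169 and 206 (10 Gy) FPKM, a log2 fold change of 0.17 ± 0.095 [0.26]. DLGAP5 and ASPM, which act on kinetochore fibres and spindle poles, had log2 fold changes of 0.90 ± 0.051 and 0.99 ± 0.089 in H446 and of 0.36 ± 0.048 and 0.46 ± 0.057 in A549.

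The 6 genes of the cyclins, CDK1 and the CDC25 phosphatases were all called higher in H446, with a median log2 fold change of 0.80. CCNB1, the cyclin that activates CDK1 at mitotic entry (chromosome 5, 69167150-69178245), stood in H446 at 95.3, 94.5 and 97.6 (controls) and 184, 194 and 188 (10 Gy) FPKM, a log2 fold change of 0.97 ± 0.034. It had the highest log2 fold change of any member in A549, 0.55 ± 0.060, from 42.8, 46.04 and 42.2 (controls) and 62.5, 71.6 and 60.1 (10 Gy) FPKM. BEAS-2B cells had 138, 127 and 145 (controls) and 175, 133 and 195 (10 Gy) FPKM, a log2 fold change of 0.27 ± 0.12 [0.43] that was not called. In BEAS-2B, irradiated replicates 1 and 3 lay above the controls and replicate 2 among them. CDK1 stood in H446 at 85.97, 88.5 and 91.9 (controls) and 158, 156 and 163 (10 Gy) FPKM, a log2 fold change of 0.83 ± 0.037. It was at 78.9, 77.3 and 79.05 (controls) and 93.02, 99.1 and 89.2 (10 Gy) FPKM in A549, a log2 fold change of 0.25 ± 0.042, and at 167, 148 and 184 (controls) and 161, 132 and 193 (10 Gy) FPKM in BEAS-2B, a log2 fold change of -0.050 ± 0.13 [0.088]. CDK1 was called in both cancer lines. CDC25B, a phosphatase that removes the inhibitory phosphates of CDK1, had almost the same log2 fold change in each line. It stood in H446 at 69.6, 72.01 and 69.2 (controls) and 90.6, 81.8 and 83.99 (10 Gy) FPKM, a log2 fold change of 0.28 ± 0.043, and in A549 at 122, 122 and 117 (controls) and 145, 141 and 151 (10 Gy) FPKM, a log2 fold change of 0.28 ± 0.038. In BEAS-2B it was at 91.2, 110.3 and 91.1 (controls) and 131, 121 and 105 (10 Gy) FPKM, a log2 fold change of 0.28 ± 0.10 [0.27] that was not called. CCNA2, CCNB2 and CDC25C had log2 fold changes of 0.79 ± 0.032, 0.80 ± 0.038 and 0.75 ± 0.046 in H446, and none of these 3 was called in A549 (-0.076 ± 0.051, 0.11 ± 0.055 and -0.035 ± 0.066).

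Of the 4 genes of anaphase entry, 3 were called higher in H446, with a median log2 fold change of 0.78. UBE2C, the ubiquitin carrier of the anaphase-promoting complex (chromosome 20, 45812644-45816952), stood in H446 at 73.8, 72.2 and 72.3 (controls) and 150.1, 142 and 140.3 (10 Gy) FPKM, a log2 fold change of 0.97 ± 0.037. It was at 57.7, 66.9 and 56.4 (controls) and 71.9, 71.2 and 70.4 (10 Gy) FPKM in A549, a log2 fold change of 0.24 ± 0.056, and at 217, 223 and 234 (controls) and 288, 239 and 288 (10 Gy) FPKM in BEAS-2B, a log2 fold change of 0.27 ± 0.090 [0.36]. UBE2C libraries did not overlap in any line, and it was called in the cancer lines. PTTG1, the securin that restrains separase, had the highest mean of all members over the 18 libraries, while TOP2A was higher in both A549 groups. Reads of near-identical gene copies may be mixed into PTTG1. It stood in H446 at 207, 198 and 212 (controls) and 378, 407 and 355 (10 Gy) FPKM, a log2 fold change of 0.88 ± 0.051, and in A549 at 141, 149.6 and 136 (controls) and 206, 201 and 198 (10 Gy) FPKM, a log2 fold change of 0.50 ± 0.040. In BEAS-2B it was at 529.7, 482 and 584 (controls) and 589, 507 and 714 (10 Gy) FPKM, a log2 fold change of 0.17 ± 0.12 [0.29]. The groups of PTTG1 overlapped in BEAS-2B only. ESPL1, separase itself, had a low level in every group. It stood in H446 at 8.05, 7.60 and 8.62 (controls) and 9.63, 8.76 and 8.84 (10 Gy) FPKM, a log2 fold change of 0.15 ± 0.061 that was not called although the groups did not overlap. It was at 6.68, 6.59 and 6.77 (controls) and 7.07, 6.76 and 6.66 (10 Gy) FPKM in A549, a log2 fold change of 0.028 ± 0.056, and at 11.2, 12.3 and 11.01 (controls) and 13.01, 13.1 and 12 (10 Gy) FPKM in BEAS-2B, a log2 fold change of 0.13 ± 0.081 [0.11]. With the GC trend of each library removed, ESPL1 was called higher in H446, by 0.27 ± 0.056 log2 units. CDC20, which activates the anaphase-promoting complex, was called in H446 (0.69 ± 0.034) and had 0.005 ± 0.056 in A549.

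All 4 cytokinesis genes were called higher in H446, with a median log2 fold change of 0.57. ANLN, the scaffold of the contractile ring (chromosome 7, 36389862-36453791), stood in H446 at 60.01, 60.9 and 62.7 (controls) and 95.6, 103 and 108 (10 Gy) FPKM, a log2 fold change of 0.73 ± 0.046. It was at 48.7, 46.1 and 49.5 (controls) and 48.8, 55.2 and 51.99 (10 Gy) FPKM in A549, a log2 fold change of 0.11 ± 0.049, and at 163, 153 and 164 (controls) and 153, 129.6 and 171 (10 Gy) FPKM in BEAS-2B, a log2 fold change of -0.088 ± 0.10 [0.019]. Both sets of ANLN groups overlapped. ECT2, the exchange factor that switches on RHOA at the cell equator, differed in direction between the cancer lines. It stood in H446 at 82.9, 81.5 and 81.2 (controls) and 114, 123 and 120.2 (10 Gy) FPKM, a log2 fold change of 0.54 ± 0.037, and in A549 at 94.3, 91.7 and 95.2 (controls) and 67.7, 72.3 and 72.8 (10 Gy) FPKM, a log2 fold change of -0.40 ± 0.039. In BEAS-2B it was at 121, 110.4 and 122 (controls) and 106, 96.4 and 123 (10 Gy) FPKM, a log2 fold change of -0.12 ± 0.095 [-0.041]. Groups of ECT2 did not overlap in H446 or A549, and both were called. PRC1, which bundles midzone microtubules, stood in H446 at 84.04, 85.9 and 85.5 (controls) and 123, 132 and 134 (10 Gy) FPKM, a log2 fold change of 0.60 ± 0.038. It was at 47.03, 45.1 and 47.9 (controls) and 49.8, 49.9 and 46.4 (10 Gy) FPKM in A549, a log2 fold change of 0.059 ± 0.043, and at 137, 127 and 133 (controls) and 141, 126 and 147 (10 Gy) FPKM in BEAS-2B, a log2 fold change of 0.057 ± 0.080 [0.12]. Neither was called. RACGAP1, the partner of KIF23 in centralspindlin, changed least of the 4. It stood in H446 at 55.8, 54.9 and 56.3 (controls) and 75.5, 77.7 and 77.4 (10 Gy) FPKM, a log2 fold change of 0.46 ± 0.033, in A549 at 35.2, 34.02 and 36.4 (controls) and 34.1, 34.99 and 33.6 (10 Gy) FPKM, a log2 fold change of -0.040 ± 0.041, and in BEAS-2B at 69.01, 66.3 and 68.4 (controls) and 72.3, 63.7 and 75.9 (10 Gy) FPKM, a log2 fold change of 0.052 ± 0.080 [0.12]. Its A549 and BEAS-2B groups overlapped.

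The remaining 3 members act on transcription or on whole chromosomes, and all were called higher in H446, with a median log2 fold change of 0.61. FOXM1, the transcription factor of G2/M genes (chromosome 12, 2857680-2877174), stood in H446 at 52.1, 53.9 and 52.9 (controls) and 81.6, 76.2 and 86.05 (10 Gy) FPKM, a log2 fold change of 0.61 ± 0.045. It was at 28.4, 24.3 and 24.8 (controls) and 22.5, 23.9 and 24.7 (10 Gy) FPKM in A549, a log2 fold change of -0.12 ± 0.059, and at 51.1, 67.4 and 50.2 (controls) and 64.2, 64.2 and 52.97 (10 Gy) FPKM in BEAS-2B, a log2 fold change of 0.11 ± 0.12 [0.064]. Neither was called, and groups overlapped in both. TOP2A, the topoisomerase that untangles sister chromatids, stood in H446 at 89.6, 89.3 and 88.4 (controls) and 141, 146 and 154 (10 Gy) FPKM, a log2 fold change of 0.71 ± 0.038. It was at 177, 167 and 184 (controls) and 208, 228 and 214 (10 Gy) FPKM in A549, a log2 fold change of 0.30 ± 0.045 that was called, and at 256, 240.1 and 251 (controls) and 262, 198 and 302 (10 Gy) FPKM in BEAS-2B, a log2 fold change of 0.009 ± 0.13 [0.18]. MKI67, the chromosome coat protein Ki-67 used as a proliferation marker, stood in H446 at 44.8, 44.7 and 44.7 (controls) and 53.99, 58.8 and 64.6 (10 Gy) FPKM, a log2 fold change of 0.39 ± 0.056. The gene was called lower in A549, where it was at 39.8, 37.4 and 41.2 (controls) and 34.2, 37.7 and 35.9 (10 Gy) FPKM with a log2 fold change of -0.13 ± 0.049, although the groups overlapped. In BEAS-2B it was at 51.2, 68.5 and 47.5 (controls) and 64.5, 55.6 and 52.8 (10 Gy) FPKM, a log2 fold change of 0.060 ± 0.13 [0.083].

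**Figure D2:**
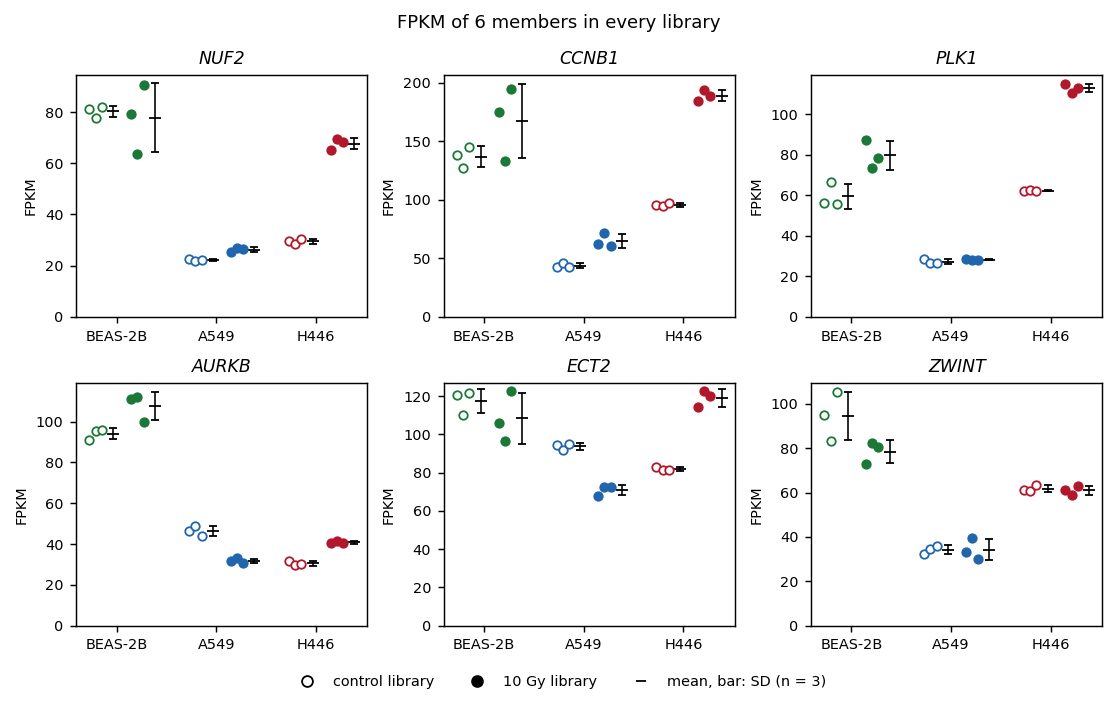
FPKM of 6 members in every library, with 1 panel per gene and axes from 0. Open points are control and filled points 10 Gy libraries of each line, and the bar beside them is the mean with its SD (n = 3). In H446 all but ZWINT separate, in A549 AURKB and ECT2 are lower after 10 Gy, and irradiated BEAS-2B libraries are spread widely for NUF2 and CCNB1.

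In A549 cells the members went both ways. Of the 50, 19 were called higher and 6 lower (CENPA, AURKB, BIRC5, KIF18A, ECT2 and MKI67), which is 50% called beside 51.7% of all 11993 genes tested there. The share higher was 38.0%, against 25.3% over all genes, and the share lower 12%, against 26.4%. The count lower rested on 1 library, since without A549 10 Gy replicate 2 the calls were 17 higher and 12 lower, beside 22.5% and 24.5% of all genes in that fit. The median log2 fold change was 0.056, or 0.098 after quantile normalization, and the median member of the 3 irradiated libraries stood at 0.042, 0.12 and 0.015 log2 units from the control mean. The members had a range from -0.53 for AURKB to 0.55 for CCNB1. All irradiated A549 libraries lay above all controls for 21 members and below them for 7, against 29.0% and 29.5% of all genes tested. For 7 members they lay below the controls in A549 and above them in H446, a pattern of 6.43% of the 10811 genes tested in both lines. The idea behind the list, that mitosis genes are higher in irradiated H446 cells only, therefore did not hold for each member, since 18 were called higher in both cancer lines, beside 4.22% of the genes tested in both. These 18 are 38.3% of the members called in H446 and 94.7% of those called higher in A549, and the latter share is close to the 94.0% of all members called higher in H446. They include CCNB1, PTTG1, ASPM, CENPF, KIF20A, DLGAP5, HMMR and TOP2A, and log2 fold changes of the 18 were smaller in A549 than in H446 except for CDC25B, which had 0.28 in both. A further 23 were called in H446 and not in A549, beside 6.42% of the genes tested in both, among them PLK1, BUB1, KIF2C, CCNA2 and CDC20. Across the 50 members, log2 fold changes in H446 and A549 had a Spearman correlation of 0.41, those in H446 and BEAS-2B 0.23, and those in A549 and BEAS-2B 0.053. Within each line the members share the same libraries, so these correlations are descriptions.

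In BEAS-2B cells, 0 of the 50 members and 0 of the 11734 genes tested were called by limma, while 1446 genes had an unadjusted p under 0.05. Over the members the median log2 fold change was 0.047, with a range from -0.26 for ZWINT to 0.42 for PLK1. AURKB, BIRC5, CDCA8, PLK1, CDC20 and UBE2C had all irradiated libraries above all controls, which is 6 of 50 members beside 7.48% of all genes, and ZWINT had all of them below, beside 8.87%. The irradiated libraries differed from each other. Relative to the control mean, the median member was at 0.068 in replicate 1, at -0.12 in replicate 2 and at 0.19 log2 units in replicate 3, and 29, 13 and 45 members lay above that mean. Replicate 2 was also the library with the low CDKN1A. Without it, the median was 0.12, 44 members were above 0 in place of 28, 16 changed sign, and 5 members were called higher, beside 1.92% of all genes tested called higher and 0.0771% lower. They were CDC20 (log2 fold change 0.44 ± 0.081), PLK1 (0.47 ± 0.098), CCNB1 (0.43 ± 0.091), AURKA (0.38 ± 0.081) and CENPA (0.37 ± 0.079).

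**Figure D3:**
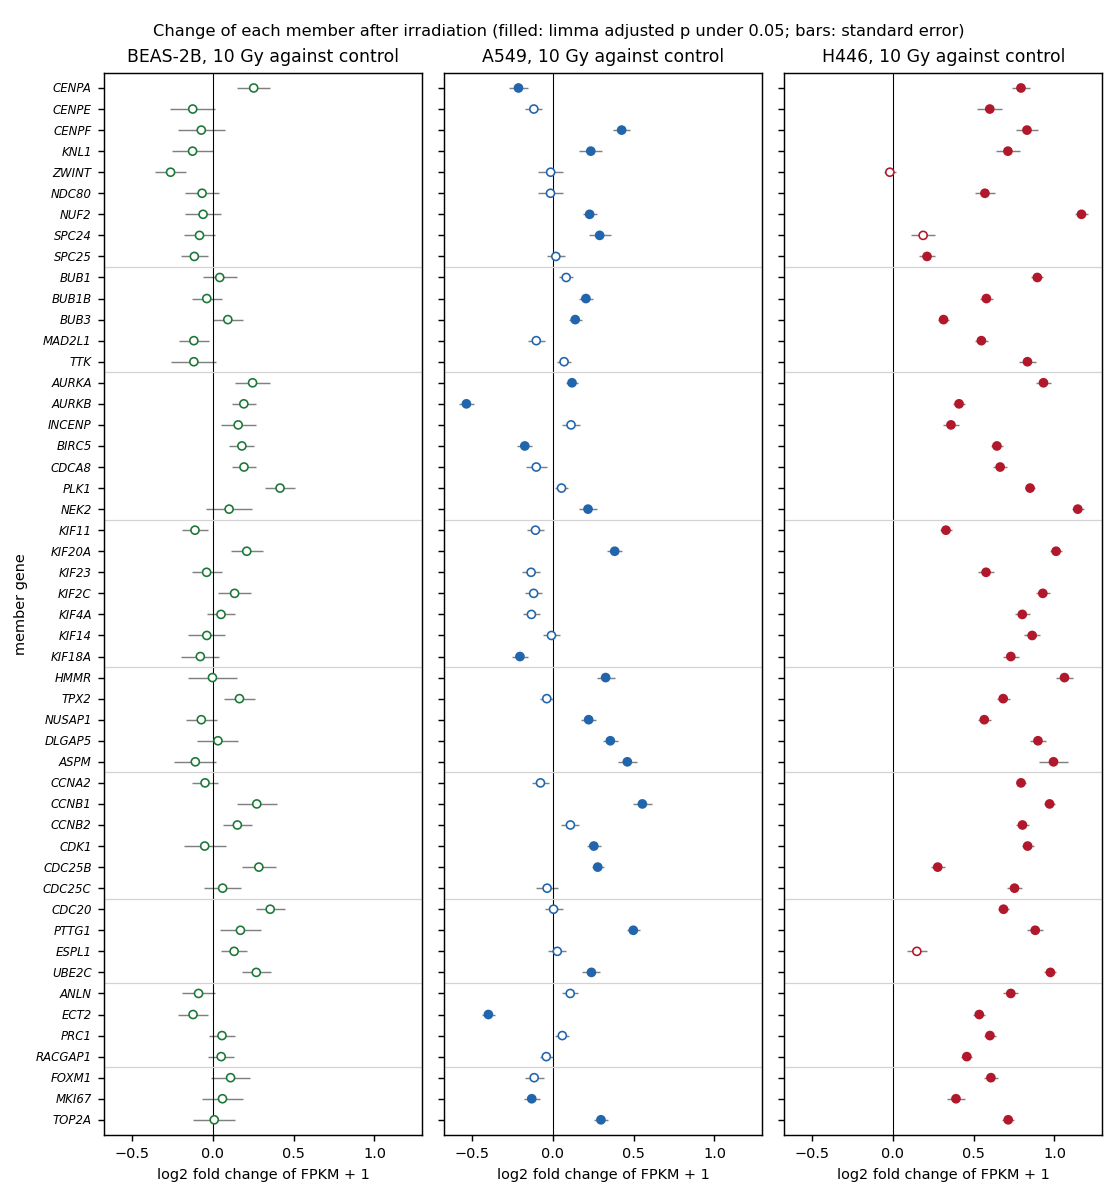
Log2 fold change of FPKM + 1 after 10 Gy for each member, in 1 panel per line, with members in the same order. Points are limma estimates, bars their standard errors, and filled points are called. In H446, 47 points are filled and lie to the right of 0, in A549 25 are filled on both sides, and in BEAS-2B none is.

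Set against each other in 1 fit of all 18 libraries, the log2 fold changes were larger in H446 than in BEAS-2B by a median of 0.66, and larger in H446 than in A549 by 0.67. These contrasts were also part of how the list came about and are a description. Between H446 and BEAS-2B, 43 members were called higher in H446 and 0 lower, beside 8.99% of all 13071 genes called higher. Between H446 and A549, 42 were called higher in H446 and 0 lower, beside 15.3%. KIF2C had the largest difference between H446 and A549, 1.05 ± 0.11, and NUF2 the largest between H446 and BEAS-2B, 1.23 ± 0.11. CDC25B differed by -0.008 ± 0.11 between H446 and BEAS-2B, and the SPC24 difference between H446 and A549 was -0.10 ± 0.12. Between A549 and BEAS-2B, 5 members were called higher in A549 and 7 lower, beside 14.6% and 16.0% of all genes, with a median of 0.005. Without BEAS-2B 10 Gy replicate 2, 44 members were called higher in H446 than in BEAS-2B, with a median of 0.55, beside 6.69% of all genes in that fit. Between A549 and BEAS-2B, 2 were then called higher and 12 lower, beside 13.9% and 16.1%, with a median of -0.069. The balance was the opposite without BEAS-2B 10 Gy replicate 3, with 14 higher and 6 lower, beside 17.7% and 18.4%, and a median of 0.079. After quantile normalization 10 were higher and 6 lower, beside 16.5% and 14.8%.

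The unirradiated lines differed from each other in the same genes, a comparison that the choice of members did not use. It takes the same control libraries as the radiation contrasts, so that a high control level also enters those log2 fold changes. In limma over the 9 control libraries and 12854 genes, 47 of the 50 members were lower in A549 than in BEAS-2B, 2 were higher (CENPE and CDC25B) and KIF18A was not called. Over all genes, 85.1% were called in that comparison, 38.8% higher and 46.3% lower. The median log2 difference of the members was -1.0, against -0.075 over all genes. NDC80, at 71.9 ± 3.81 FPKM in BEAS-2B and 10.8 ± 0.47 FPKM in A549 (mean ± SD, n = 3), had the largest difference, -2.63 ± 0.057 on the log2 scale (limma adjusted p = 2.65e-13). KIF20A followed, with 95.4 ± 2.93 FPKM and 18.2 ± 0.26 FPKM and a log2 difference of -2.33 ± 0.041 (limma adjusted p = 3.49e-14). In both genes the difference is many times the SD of the groups. CENPE was higher in A549, by 0.47 ± 0.058 log2 units (limma adjusted p = 6.70e-06), and CDC25B by 0.30 ± 0.065 (limma adjusted p = 7.96e-04).

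Between unirradiated H446 and BEAS-2B, 41 members were lower in H446, 3 were higher (CENPE, ASPM and CENPF; 6 with the GC trend removed) and 6 were not called, beside 82.6% of all genes called and 46.7% lower in H446. Their median log2 difference was -0.55, against -0.095 over all genes. CDC25C, at 51.3 ± 4.86 FPKM in BEAS-2B and 12.4 ± 0.51 FPKM in H446, was the furthest below, at -1.96 ± 0.076 log2 units (limma adjusted p = 6.99e-11), followed by HMMR (-1.62 ± 0.051, limma adjusted p = 1.04e-11). PLK1, CCNA2, BUB1B, BUB3, INCENP and FOXM1 were not called, with log2 differences from -0.071 for FOXM1 to 0.069 for PLK1. By role, all 7 kinesins, all 4 genes of anaphase entry and all 4 cytokinesis genes were lower in H446.

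Between the unirradiated cancer lines, 36 members were higher in H446 than in A549, 8 lower and 6 not called, beside 84.4% of all genes called and 41.4% higher in H446, and the median log2 difference was 0.36. KIF20A was 1.32 ± 0.041 log2 units higher in H446 (limma adjusted p = 6.52e-12), PLK1 1.17 ± 0.063 (limma adjusted p = 1.76e-09) and CCNA2 1.16 ± 0.040 (limma adjusted p = 1.70e-11). TOP2A was lower in H446, at 89.1 ± 0.64 FPKM against 176 ± 8.31 FPKM in A549, a log2 difference of -0.97 ± 0.046 (limma adjusted p = 4.31e-10). KIF18A, HMMR and CDC25B were also lower in H446. Control means were higher in BEAS-2B than in H446 for 44 members, and than in A549 for 47.

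Irradiated H446 cells had the highest mean of the 6 groups for 23 members. The median member stood at 70.2 FPKM in BEAS-2B controls and 70.8 FPKM after 10 Gy, at 30.6 and 33.3 FPKM in A549, and at 44.5 and 76.0 FPKM in H446. BEAS-2B cells held the highest mean for 14 members after 10 Gy and for 11 in the controls, while A549 controls held the lowest for 25. Compared with BEAS-2B controls, all 3 irradiated H446 libraries lay above all 3 controls for 20 members and below them for 18, beside 34.1% and 48.0% of all 13071 genes. PLK1 was at 113 FPKM in irradiated H446 and 59.5 FPKM in BEAS-2B controls, and AURKB at 40.9 and 94.1 FPKM.

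**Figure D4:**
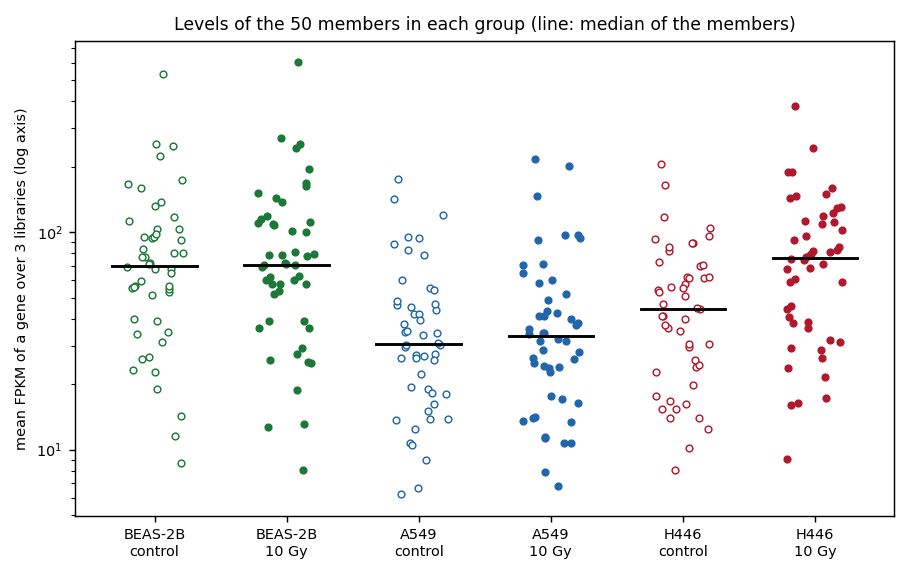
Mean FPKM of each of the 50 members in each of the 6 groups, on a log axis, with open points for controls, filled points for 10 Gy and the black line at the median of the members. The median line of irradiated H446 cells (76.0 FPKM) lies near those of BEAS-2B (70.2 and 70.8 FPKM), and both A549 groups lie lowest.

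Members had a low GC content, and in H446 and BEAS-2B the values of all genes moved with it. The longest transcript of a member had a median GC content of 43.2%, from 35.3% in CENPE to 59.6% in INCENP, while the median of genes tested in H446 was 47.9%. Over 11380 genes, the log2 fold change in H446 had a Spearman correlation of -0.48 with GC content, and the deviation of each library from the line's mean correlated with GC content at 0.35 to 0.46 in the controls and at -0.50 to -0.11 after 10 Gy. The correlation over all genes was larger in BEAS-2B, 0.60 over 11642 genes, and was -0.008 in A549. In BEAS-2B the libraries of a group were also unlike each other, at -0.63 to 0.013 in the controls and at 0.45, 0.705 and -0.31 in irradiated replicates 1, 2 and 3, so that replicate 2 had the highest value of the 18 libraries. In H446, the 4427 other genes with a GC content between the quartiles of the members had a median log2 fold change of 0.024. With the GC trend removed from each library, the members' median in H446 was 0.71, with values from 0.015 to 1.11, and 49 of 50 were called higher, beside 16.3% of all genes. Single members moved by between -0.082 (CENPE) and 0.15 (INCENP) log2 units, and SPC24 and ESPL1 were among those called (each 0.27), while ZWINT was not. In BEAS-2B the members' own log2 fold changes had a Spearman correlation of 0.72 with GC content, and 0.40 after the trend was removed. Their median was then 0.062, with 41 members above 0, against 28 before, and 0 called. Within the list, the H446 log2 fold change had a Spearman correlation of 0.059 with the control level and of -0.19 with transcript length.

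**Figure D5:**
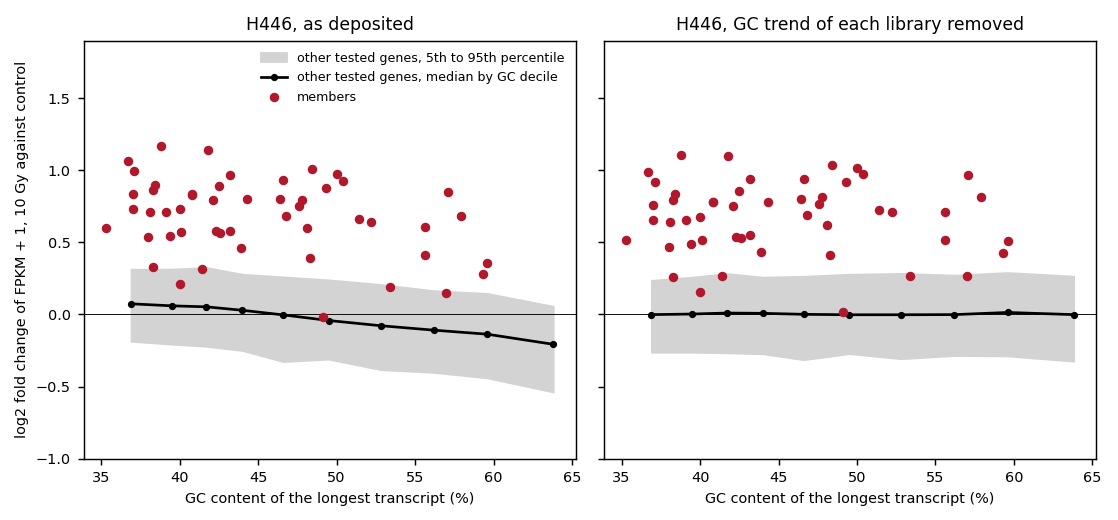
Log2 fold change in H446 (10 Gy against control) against the GC content of the longest transcript in percent, as deposited on the left and with the GC trend of each library removed on the right. Red points are the 50 members, the black line the median of other tested genes in each GC decile and the grey band their 5th to 95th percentile. The line slopes from 0.074 to -0.21 on the left and is flat on the right, and most members lie above the band in both.

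Of 117 further genes from 8 lists of the same machinery, 66 were called higher in irradiated H446 cells, 18 lower and 33 not, with a median log2 fold change of 0.19. Over all genes tested in H446, 14.8% were called higher and 23.6% lower, and the counts of the lists below stand beside the same shares. In A549, 18 of the 117 were called higher and 40 lower, beside 25.3% and 26.4% of all genes, and in BEAS-2B 0 were called, as of all genes. Of 28 other spindle and checkpoint genes, 22 were called higher and 1 lower, from -0.33 for KNTC1, a subunit of the RZZ checkpoint complex, to 0.82 for KIF20B, a midzone kinesin. Of 9 other cytokinesis genes, 6 were called higher and 1 lower, from -0.21 for SEPTIN9 to 1.02 for CEP55, a protein of the last step of abscission. Of 8 condensin genes, 6 were called higher and 2 lower, from -0.32 for NCAPH2 to 0.75 for NCAPH, which are subunits of condensin II and condensin I. Of 12 genes of G2 entry control, 10 were called higher and 2 lower, from -0.47 for CDC25A, a phosphatase that also drives the entry into S phase, to 0.77 for CKS2, a small CDK-binding protein.

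Of 21 genes of the inner kinetochore and MIS12 complex, 9 were called higher and 3 lower, from -0.54 for DSN1, a MIS12 subunit, to 0.68 for HJURP, the chaperone that loads CENPA. Of 12 genes of cohesin and its protectors, 6 were called higher and 2 lower, from -0.21 for STAG1, a cohesin subunit, to 0.67 for SGO1, shugoshin. Of 17 genes of the anaphase-promoting complex and its regulators, 4 were called higher, 2 lower and 11 not, from -0.25 for ANAPC11 to 0.56 for UBE2S, which extends ubiquitin chains beside UBE2C. Of 10 genes of the DREAM and MuvB complexes, 3 were called higher and 5 lower, from -0.48 for RBBP4 to 0.23 for LIN54, the MuvB subunit that binds the CHR.

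A last list holds genes that p53 induces to hold cells in G2, and their difference between the lines was not tested. CDKN1A stood in H446 at 75.7, 72.8 and 71.7 FPKM in the controls and at 72.4, 63.6 and 65.9 FPKM after 10 Gy. It was at 101, 106 and 103 FPKM in A549 controls and at 318, 294 and 297 FPKM after 10 Gy, a log2 fold change of 1.54 ± 0.040. The 3 irradiated A549 libraries were alike, unlike those of BEAS-2B, where the log2 fold change was 1.56 ± 0.42 [2.196] and was called once replicate 2 was left out. Of the 5 genes in this list 4 were tested, with 2 called higher and 1 lower in H446, 3 higher and 1 lower in A549 and 0 in BEAS-2B. In H446 they ran from -0.64 ± 0.036 for SFN to 0.41 ± 0.046 for GADD45A. GADD45A was lower in A549, at -0.53 ± 0.054, while BTG2 (1.47 ± 0.068) and SFN (0.60 ± 0.043) were called higher there. In BEAS-2B, BTG2 was at 6.9, 7.12 and 6.4 (controls) and 25.7, 7.05 and 33.8 (10 Gy) FPKM. GADD45A was there at 53.4, 64.5 and 56.02 (controls) and 119.8, 55.6 and 145.8 (10 Gy) FPKM. SFN was there at 54.2, 62.4 and 55.06 (controls) and 67.99, 65.7 and 69.5 (10 Gy) FPKM.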

How the data were processed

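RNA-seq was performed on BEAS-2B, A549 and H446 cells, 3 control and 3 irradiated (10 Gy) libraries per line, grouped by the sample labels. The authors selected poly(A) RNA and sequenced 50 bases from a single end of each fragment (BGISEQ-500). The submitters' processing notes name HISAT2 2.0.4, Bowtie2 2.2.5, RSEM 1.2.12 and hg38. The use of strand is not given in the sources used here. The authors deposited 1 value per gene and library, taken here as FPKM. This unit is inferred, since the sources do not name it and the totals differ between libraries. The values are no counts, so the depth is unknown and no counting interval is given. Of 18475 genes, 18181 were matched to RefSeq names by Entrez number.

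A gene entered a fit when 3 or more of its libraries reached 1 FPKM, and was tested on log2(FPKM + 1) with limma 3.58.1 (eBayes with trend) in R 4.3.3, at a Benjamini-Hochberg adjusted p under 0.05. All 50 members passed this filter in each line. Each line was fitted alone, the 9 controls together, and differences in response over all 18 libraries. An exact permutation test of 3 against 3 libraries cannot give a p below 0.1. Scripts were tested on simulated data with 200 changed genes. GC content is that of the longest GENCODE 29 transcript, and promoters are RefSeq windows on GRCh38.p14. Libraries were not paired by replicate number in the main fits, and whether the numbers mark pairs is unknown.

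The members, the gene lists and the tests were chosen with earlier results of these data known. Some marker genes are not reported here. Values in every library are given for the 2 members of each subgroup with the highest mean, those with the largest and the smallest log2 fold change in H446, and BUB3 and FOXM1. Other pathway lists are given by counts and extremes in H446, and promoters for the 3 largest and 2 smallest changes. Alternatives were quantile normalization, no trend, no filter, a pseudocount of 0.1, a minimum of 1 FPKM in all libraries, equal totals, removal of the GC trend (loess, span 0.5), a replicate block, 1 fit of all libraries, and each library left out in turn. Python 3.11.15 was used for tables, with numpy 2.4.6 and pandas 2.3.3, and matplotlib 3.10.9 drew the figures.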

Additional observations from a re-analysis of the deposited data

Results flagged for a closer look

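The log2 fold changes after 10 Gy were compared between lines in the fit of all 18 libraries. The difference passed the threshold for 43 of the 50 members between H446 and BEAS-2B, for 42 between H446 and A549 and for 12 between A549 and BEAS-2B, beside 22.7%, 34.6% and 30.6% of all genes tested. The last count is 24.0% of the members, below the share of all genes. The members were chosen with these contrasts in view, so the counts are a description, and BEAS-2B 10 Gy replicate 2 enters both counts that involve BEAS-2B.

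For 7 members, every irradiated library was above the controls in H446 and below them in A549, as for 6.43% of the 10811 genes tested in both lines. The log2 fold change was larger in H446 than in A549 by 1.01 for CENPA, 0.717 for CENPE, 0.944 for AURKB, 0.818 for BIRC5, 0.932 for KIF4A, 0.933 for KIF18A and 0.933 for ECT2. AURKB and BIRC5 belong to the chromosomal passenger complex, CENPE, KIF4A and KIF18A are kinesins, CENPA is the centromere histone and ECT2 acts in cytokinesis. These differences were not tested independently of the choice of members.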

How the results depend on the processing

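The counts of members called in either direction for irradiated H446 cells, for irradiated A549 cells, for the 3 comparisons of unirradiated lines and for H446 against each other line stayed within 1.5 times the reported counts under every alternative run. With 1 library left out in turn, 47 to 48 members were called in H446, 22 to 29 in A549 and 0 to 5 in BEAS-2B. In the same fits, 28.1% to 41.2% of all genes were called in H446, 45.1% to 47.9% in A549 and 0% to 1.99% in BEAS-2B. Among unirradiated lines, 43 to 45 were called between H446 and BEAS-2B, 49 in each fit between A549 and BEAS-2B and 42 to 45 between H446 and A549. Of all genes, 79.5% to 83.6%, 81.8% to 85.2% and 81.3% to 87.7% were called in these fits, in the same order. For differences in response, the counts were 42 to 45 between H446 and BEAS-2B, 39 to 44 between H446 and A549 and 8 to 20 between A549 and BEAS-2B. The last count, 12 with all libraries, was 20 without BEAS-2B 10 Gy replicate 3, beside 36.1% of all genes called in that fit. Counted by direction, the 6 members called lower in A549 became 12 without A549 10 Gy replicate 2, beside 24.5% of all genes. The 3 called higher in H446 than in BEAS-2B controls became 6 with the GC trend removed, beside 42.3%. With equal totals they became 5, beside 40.1%. For the response of A549 against BEAS-2B, the 5 called higher became 10 after quantile normalization and 3 without a filter, beside 16.5% and 10.4% of all genes. They became 11 with the block and 9 with the block and the GC trend removed, beside 14.9% and 17.2%. Without A549 10 Gy replicate 2, BEAS-2B 10 Gy replicate 1 or BEAS-2B control replicate 1 they became 1. They became 2 without BEAS-2B 10 Gy replicate 2 or A549 control replicate 3. Without A549 10 Gy replicate 3, A549 control replicate 1 or 2 or BEAS-2B control replicate 3 they became 3. They became 8 without BEAS-2B control replicate 2 and 14 without BEAS-2B 10 Gy replicate 3. With 1 library left out, 11.8% to 17.7% of all genes were called higher. The 7 called lower became 12 without BEAS-2B 10 Gy replicate 2, beside 16.1%.

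In irradiated BEAS-2B, against 0 members as reported, 5 were called higher without BEAS-2B 10 Gy replicate 2, beside 1.92% of all genes. With all 18 libraries in 1 fit, 5 were called higher (AURKB, CDC20, PLK1, UBE2C and CDC25B), beside 3.94% of all genes. With the replicate block, 3 members were called higher in BEAS-2B (CDC20, PLK1 and CDC25B), beside 2.93% of all genes, and with the GC trend removed as well 0 members and 0 genes were called there. The block called 19 in either direction for the response of A549 against BEAS-2B, beside 31.8%. With the GC trend removed, KIF23, KIF4A and ANLN were also called in A549 (28 members in place of 25) and SPC24 and ESPL1 in H446 (49 in place of 47), and no call was lost in these lines. Beside these counts, 53.6% and 31.0% of all genes were called. Replicate numbers gave no sign of pairing in A549, where the deviations of same-numbered libraries correlated at -0.099 to 0.01, and correlated at -0.13 to 0.32 in BEAS-2B and at 0.01 to 0.19 in H446, and the block changed no other count in either direction by over 1.5 times. The median log2 difference between unirradiated H446 and A549 lay between 0.256 and 0.414 over the alternatives, that between A549 and BEAS-2B between -1.026 and -0.884, and that between H446 and BEAS-2B between -0.571 and -0.445. The median in irradiated A549, 0.056, lay between 0.046 and 0.098, and that in BEAS-2B, 0.047, was -0.049 without 10 Gy replicate 3. Of 6450 values of single members in radiation contrasts over the alternatives, 264 moved by more than the SD of replicates, 86 of them with the GC trend removed, 86 with the block as well and 41 without BEAS-2B 10 Gy replicate 2. Of 2850 tested differences between unirradiated lines, 19 gained and 20 lost their call. The cause of these changes was not tested. No direction of a called value turned under any alternative run. Depth is unknown, and 3 libraries per group limit the precision.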

Other observations

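In A549 cells, genes of the same machinery outside the 50 members were called lower in 40 and higher in 18 of 117 cases, beside 26.4% and 25.3% of all genes tested. The genes named here were chosen after their values were seen. The lowest log2 fold change was that of MYBL2, which encodes B-MYB, at -0.71 ± 0.050, followed by STAG1, a cohesin subunit, at -0.64 ± 0.084 and SKA1, a kinetochore protein, at -0.59 ± 0.088. Among others, FBXO5, an inhibitor of the anaphase-promoting complex, was at -0.51 ± 0.069, and PKMYT1, an inhibitory kinase of CDK1, at -0.56 ± 0.070. The highest of these 117 were TUBB4B, a tubulin, at 0.60 ± 0.043, and the midzone kinesin KIF20B, at 0.56 ± 0.048, followed by FAM83D, a spindle protein, at 0.54 ± 0.062 and CENPW, an inner kinetochore protein, at 0.53 ± 0.065.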
